A study of Mesocricetus auratus with 24 samples.

Results

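Of 22842 windows of 1 kb measured in all 24 libraries of the series, 267 were low in methylation in every group but one and higher in a culture that had bypassed senescence (SENbp). A window was measured when each library listed at least 3 cytosine positions in it, and its level was the percent of its read coverage that carried methylated cytosine. The 267 windows were those with a group mean below 25% in each of the other 5 groups and a SENbp mean at least 20 percentage points above the highest of these 5 means. They made up 2.02% of the 13186 windows that were low in the other 5 groups, and the remaining 12919 are called other low windows here. Since the SENbp values chose the windows, the rise itself is given as a description with no test. The windows are named by scaffold, start and end in the deposited coordinates, because an annotation of that assembly was not used here.

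In vertebrate DNA most CpG cytosines are methylated, while stretches dense in CpG, the CpG islands that often hold promoters, are usually unmethylated in normal cells. Their margins, called shores, lie between the unmethylated island and the methylated surroundings. Methylation gained over such stretches is common in cultured, immortalised and tumour cells, and at a promoter it goes with a silent gene. Senescence is a lasting arrest of the cell cycle, and bypass is the return of a culture to growth.

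Methylation was read by reduced representation bisulfite sequencing, which samples CpG-rich restriction fragments, in Syrian hamster (Mesocricetus auratus) fetal cells from a colony transformation assay. The SENbp libraries (day 94) and the SEN libraries (day 48, in senescence) came from 1 culture, grown out of a colony that had been treated with 5 µg/mL benzo[a]pyrene (B[a]P) and looked morphologically transformed. B[a]P is a polycyclic hydrocarbon that cells turn into DNA-damaging products. The MTc and Nc libraries came from cultures of B[a]P-treated colonies with transformed (MTc) or normal (Nc) morphology, grown for 19 to 25 days. The B[a]P and DMSO libraries came from pools of about 60 colonies on day 9, treated with 5 µg/mL B[a]P or with the vehicle, 0.2% DMSO. Each group had 4 libraries. The series describes the SENbp and SEN libraries as technical replicates, so their spread covers 1 culture at each of 2 days, and the others as biological replicates. The SENbp and SEN culture was typed male but came from an assay on pooled fetuses of both sexes, unlike the other groups, whose cells were from a single male fetus. All groups but DMSO had been exposed to B[a]P. Bypass, days in culture and the single culture behind SENbp cannot be told apart. Total coverage per library ran from 30316233 to 67276906 over 809562 to 1484688 listed positions, each with 10 or more reads.

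Over the 267 windows the mean level was 43.3%, 41.2%, 45.5% and 47.0% in the SENbp libraries. It was 12.8%, 10.8%, 14.0% and 12.0% in the SEN libraries, 8.05%, 8.84%, 8.02% and 8.31% in MTc, and 6.85%, 6.52%, 9.01% and 9.18% in Nc. In the pools it was 6.27%, 5.69%, 6.19% and 6.07% after B[a]P, and 6.14%, 5.38%, 6.32% and 6.07% with DMSO. The SENbp libraries stood far above the rest, as the choice of windows required, and the SEN libraries lay above all 16 libraries of the other 4 groups, which the choice did not require. The group means were 44.2% ± 2.53 in SENbp, 12.4% ± 1.32 in SEN, 8.31% ± 0.379 in MTc, 7.89% ± 1.40 in Nc, 6.05% ± 0.258 in B[a]P and 5.98% ± 0.413 in DMSO (SD, n = 4 each). The neighbouring means of MTc and Nc, and those of B[a]P and DMSO, differed by less than their spread. The other low windows followed the same order at a lower level, with 5.01% ± 0.163 in SENbp, 3.21% ± 0.106 in SEN, 2.41% ± 0.234 in MTc, 2.25% ± 0.408 in Nc, 1.94% ± 0.0574 in B[a]P and 1.92% ± 0.136 in DMSO. In each of the other 5 groups the 267 windows thus held more methylation than the other low windows. The level also differed over the 9656 windows that were not low, at 73.4% in SENbp, 70.5% in SEN, 67.5% in MTc, 64.6% in Nc, 65.0% in B[a]P and 64.2% in DMSO, so a higher level in SEN was not particular to the chosen windows.

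**Figure D1:**
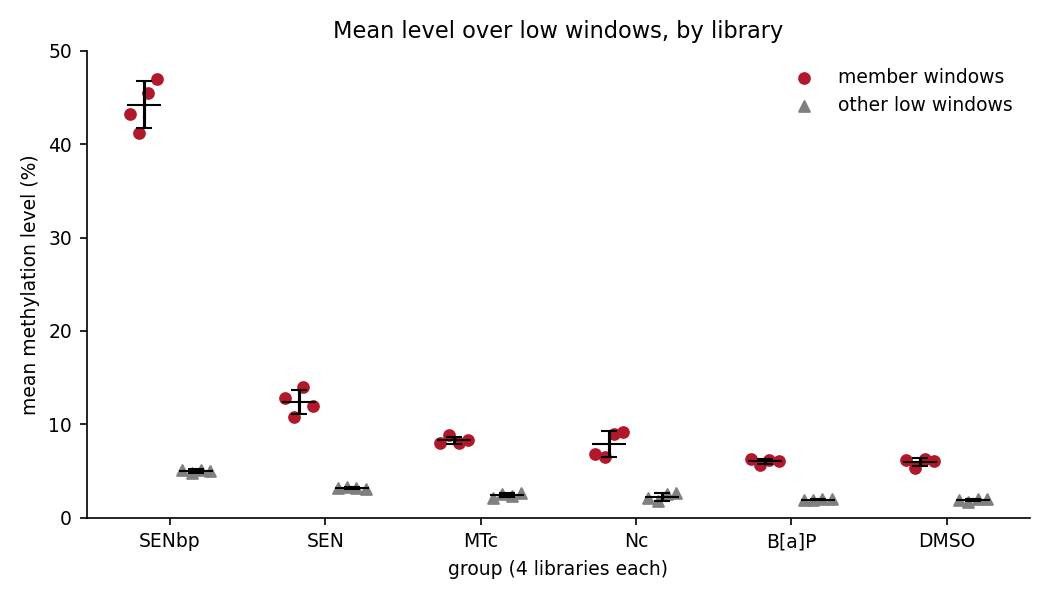
Mean methylation level (%, y axis) by group (x axis), over the 267 member windows (circles) and over the 12919 other low windows (triangles); each point is 1 library, and bars are the mean ± SD of 4 libraries. Over the member windows SENbp sits at 41.2% to 47.0%, SEN at 10.8% to 14.0%, and the other 16 libraries below 10%.

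The windows with the largest rise were mostly methylated in SENbp. KB708128.1:31818001-31819000 had 85.1%, 87.1%, 96.9% and 67.1% in SENbp libraries, against 17.1%, 11.7%, 14.5% and 12.8% in SEN libraries. In the other groups this window stayed at or below 31.3%, the value of Nc replicate 4, and its rise over the highest other group mean was 70.02 points. KB708150.1:15988001-15989000 had 73.9%, 83.4%, 88.1% and 84.5% in SENbp, against 23.6%, 0%, 16.0% and 10.8% in SEN. In DMSO pools this second window was at 0% in 3 libraries and at 14.7% in replicate 2. SENbp did not overlap any other group in either window, while SEN overlapped other groups in both.

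KB708155.1:16149001-16150000 was low in most libraries outside SENbp and SEN. It had 64.1%, 73.0%, 68.7% and 68.0% in SENbp, against 14.95%, 18.4%, 7.51% and 12.9% in SEN. It was at 0% in all 4 DMSO pools, and the 24 libraries listed 5 to 15 positions in it. In MTc 3 of 4 libraries were below 0.2% with replicate 2 at 3.62%, and no Nc library exceeded 0.963%. B[a]P replicate 2, at 13.3%, lay within the range of SEN, while the other B[a]P pools did not exceed 0.275%. KB708206.1:9671001-9672000, with a mean of 64.3 listed positions per library one of the 5 densest members, had 39.9%, 49.2%, 60.6% and 59.4% in SENbp, against 1.04%, 6.13%, 13.7% and 6.36% in SEN. No DMSO pool exceeded 0.982% there. Both windows held low but measurable methylation in the senescent culture and next to none in the DMSO pools.

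Not every member rested on all SENbp libraries. In 71 members (26.6%) each of the 4 SENbp libraries lay at least 20 points above the highest other group mean, in 97 (36.3%) 3 did, in 84 (31.5%) 2 did, and in 15 (5.62%) only 1 did. In 36 members (13.5%) at least 1 SENbp library fell below the highest other group mean. The range over the 4 SENbp libraries had a median of 29.5 points, and it passed 50 points in 43 members (16.1%), while the median range over the SEN libraries was 14.3 points. The spread went with the number of positions. The median SD over SENbp libraries was 16.3 points in the 88 members with 3 or 4 positions in their thinnest library, 12.4 points in the 117 with 5 to 9, 11.7 points in the 48 with 10 to 19, and 9.53 points in the 14 with 20 or more. Over the 62 members with at least 10 positions in every library the group means were 41.4% ± 2.78 in SENbp, 11.6% ± 0.944 in SEN, 6.46% ± 1.05 in MTc, 6.62% ± 1.38 in Nc, 4.35% ± 0.345 in B[a]P and 4.77% ± 0.593 in DMSO (SD, n = 4 each). All 4 SENbp libraries lay above all 20 others in 155 members (58.1%), and the share was 2.28% of the other low windows and 2.85% of all measured windows.

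**Figure D2:**
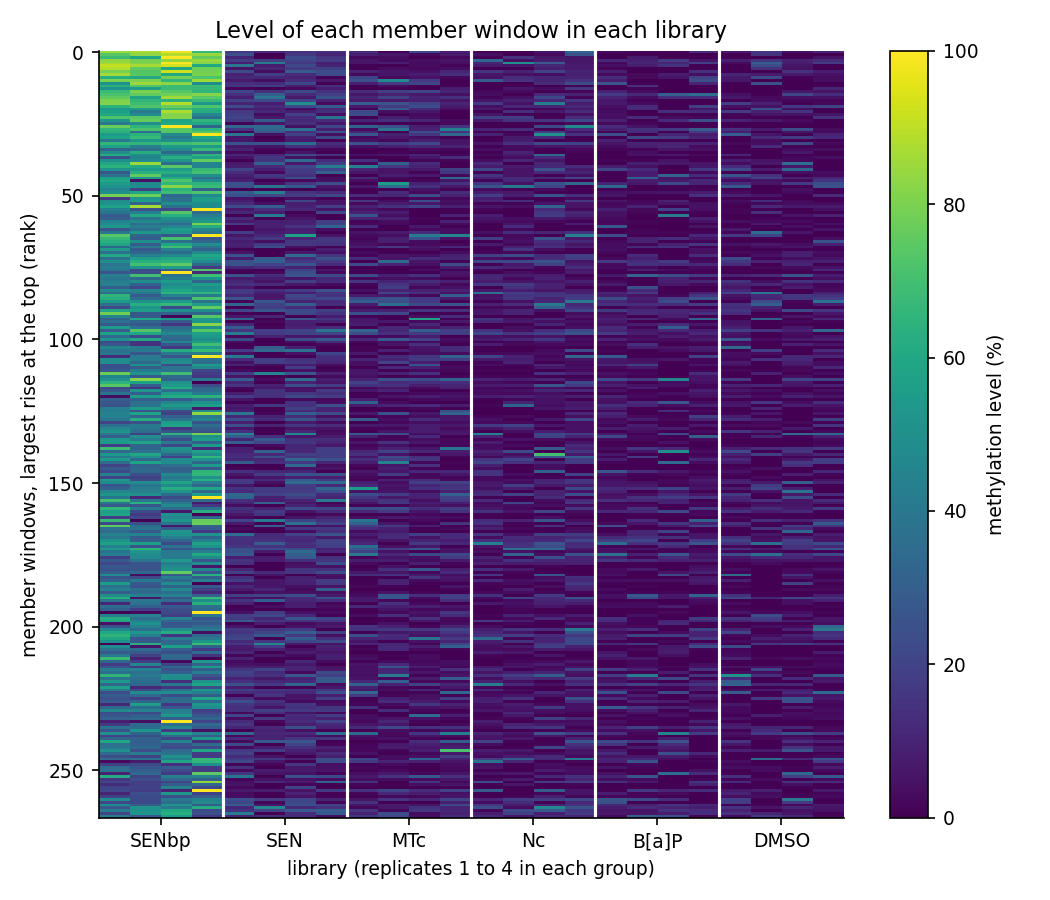
Methylation level (colour, %) of the 267 member windows (rows, largest rise at the top) in the 24 libraries (columns, replicates 1 to 4 within each group). The SENbp columns are bright and uneven from library to library in single rows, the SEN columns are faintly brighter than the rest, and single bright cells in MTc and Nc are libraries that stood apart, such as 71.4% in MTc replicate 4.

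SENbp levels were intermediate far more often than full. The SENbp mean was below 30% in 27 members, 30 to 40% in 85, 40 to 50% in 89, 50 to 70% in 51 and 70% or more in 15. The rise was 20 to 25 points in 106 members and 50 points or more in 20, with a median of 27.0 points. The 20-point limit cut through a continuous range. The 3 members just inside it were KB708344.1:633001-634000, KB708144.1:21105001-21106000 and KB708184.1:7381001-7382000 at 20.02, 20.03 and 20.12 points, and the 3 windows just outside were KB708341.1:87001-88000, KB708152.1:10416001-10417000 and KB708247.1:2941001-2942000 at 19.98, 19.93 and 19.87 points. A further 207 low windows had a rise of 15 to 20 points.

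A SENbp library that had no part in the choice gave a smaller rise than the libraries that made it. When the windows were chosen from 3 SENbp libraries, leaving out replicate 1, 2, 3 or 4, the rule kept 281, 311, 278 or 265 windows. The median rise was 28.01, 27.3, 27.2 or 27.7 points in the choosing libraries and 22.0, 20.5, 22.7 or 24.4 points in the one left out. The left-out library lay at least 20 points above the highest other group mean in 54.4%, 50.8%, 56.8% or 58.5% of the windows, against 2.02%, 1.64%, 2.50% or 3.003% of the low windows not chosen. It lay above all 20 libraries of the other groups in 70.5%, 69.5%, 73.0% or 75.1%, against 15.8%, 14.3%, 15.5% or 16.3%. The values in the left-out libraries carry no selection by that library, though all 4 libraries share 1 culture. The other groups still took part in the choice, and the low windows not chosen fell short of the rise in the choosing libraries.

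The rule capped the other 5 groups below 25% and said nothing of their order. SEN was above MTc in 209 of the 267 windows (78.3%), above Nc in 218 (81.6%) and above DMSO in 240 (89.9%). Among other low windows the shares were 57.3%, 58.4% and 64.3%. SEN held the highest of the 5 means in 176 members (65.9%), MTc in 38, Nc in 23, B[a]P in 20 and DMSO in 10, and SEN was highest in 35.4% of other low windows. Many other low windows sat near 0, where order is set by few reads, so the shares were also taken within classes of the mean level over the 20 libraries outside SENbp. At 2 to 5% SEN was above MTc in 80.3% of 71 members, against 69.7% of 2509 other low windows. At 5 to 10% it was above MTc in 84.2% of 95 members, against 65.7% of 1193, and at 10 to 25% in 73.0% of 89, against 55.4% of 572. MTc and Nc were evenly split, with MTc higher in 133 members (49.8%), and B[a]P exceeded DMSO in 127 (47.6%). MTc was above the B[a]P pools in 186 members (69.7%) and Nc in 174 (65.2%), against 58.4% and 57.6% of other low windows.

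Single windows were tested between groups with a quasi-binomial logistic model of their methylated and unmethylated reads, fitted over all measured windows with 5 to 95% pooled methylation. Calls needed an adjusted p under 0.05 and a gap of at least 10 points between the group means. In SENbp against SEN all 267 members were tested, 165 were called higher and 0 lower, over a background of 6.41% higher and 0.493% lower among 11965 tested windows. The rule used this contrast, so nothing is read from that count. In SEN against MTc 204 members passed the filter and 63 did not. Of these 204, 6 were called higher (2.94%) and 0 lower, against 2.21% higher and 0.569% lower over all 11081 tested windows. Most of the tested windows were not low. Among 2209 other low windows not beside a member, 1.81% were called higher and 0.181% lower. The members' share was near that of all tested windows, and an unadjusted p under 0.05 was as frequent among members (18.6%) as overall (19.3%). The 4 SEN libraries lay above the 4 MTc libraries in 25 of the tested members (12.3%), against 7.83% overall. The 4 SEN libraries are technical replicates of 1 culture and the 4 MTc libraries separate samples, so the SEN spread behind these p-values is technical only and the test compares that culture with the MTc samples. SEN and MTc also differed in days in culture and in fetal stock, which cannot be told apart here.

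The 6 calls carry the same limit, with n = 4 libraries of 1 SEN culture, and KB708289.1:2959001-2960000 was the one kept under all alternatives tried. It had 8.14%, 14.1%, 15.7% and 14.0% in SEN libraries, against 1.03%, 1.62%, 1.99% and 3.51% in MTc libraries (adjusted p = 0.0110), and 41.4% ± 10.6 in SENbp (SD, n = 4). KB708133.1:20770001-20771000 had 18.04%, 18.8%, 20.1% and 17.6% in SEN, against 5.54%, 2.86%, 3.98% and 5.64% in MTc (adjusted p = 0.000205). With the 0.1% of positions of highest coverage in each library left out, the adjusted p of this window was 0.708, and the window had 3909 to 18151 reads per library over 9 to 22 positions. The other calls were KB708173.1:3440001-3441000 with 13.1% ± 2.49 in SEN and 2.44% ± 1.82 in MTc (adjusted p = 0.0159), KB708332.1:545001-546000 with 18.4% ± 6.48 and 2.18% ± 2.64 (adjusted p = 0.0308), KB708155.1:16149001-16150000 with 13.4% ± 4.55 and 0.967% ± 1.77 (adjusted p = 0.0324) and KB708178.1:3283001-3284000 with 16.4% ± 7.98 and 2.24% ± 1.39 (adjusted p = 0.0398, SD, n = 4 libraries each). These last 4 calls were lost under several alternatives, among them leaving out SEN replicate 4, with adjusted p from 0.0694 to 0.0844.

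No member was called in the comparisons of morphology or of treatment. In MTc against Nc 0 of 176 tested members were called, 12 had an unadjusted p under 0.05 (6.82%) and the smallest adjusted p was 0.470. All 10649 tested windows gave a background of 0% called and 7.29% at an unadjusted p under 0.05. In B[a]P against DMSO 0 of 136 were called, 8 had an unadjusted p under 0.05 (5.88%) and the smallest adjusted p was 0.787, over a background of 0% and 6.09% of 10488 windows. Fits without dispersion squeezing also called 0 members in both comparisons.

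Density was the next feature, on which the rule set no limit beyond 3 positions in each library. It is counted here as listed cytosine positions per window and library, strands apart, which depends on coverage as well as on sequence. Members had a median of 19.5 positions (quartiles 12.4 and 27.9), other low windows 27.2 (18.8 and 37.6) and windows that were not low 10.1. Members thus lay between the dense unmethylated windows and the sparse methylated ones. Windows with 30 or more positions made up 21.0% of members (56 windows), 42.1% of other low windows and 3.003% of windows that were not low. From the sparsest to the densest quartile of low windows the share of members was 3.90%, 2.001%, 1.30% and 0.908%. The median SD over SENbp libraries fell over the same quartiles, from 3.80 to 2.21, 1.58 and 1.12 points. A window of wider spread passes a fixed rise more easily, so density is not free of the choice. The part of this spread in the shares was not tested.

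Level and density were linked, and the share of members moved mainly with level. From the sparsest to the densest quartile the mean level of low windows in SEN and in DMSO fell along with the spread over SENbp libraries. Level is therefore not free of the choice either. Spread within the classes of level was not taken, and its part in the shares below was not tested. Of 6472 low windows below 1% in the 20 libraries outside SENbp 1 was a member, of 2185 at 1 to 2% 11 were, and of 2580 at 2 to 5% 71 were (2.75%). The share was 7.38% of 1288 windows at 5 to 10%, 13.9% of 510 at 10 to 15% and 11.9% of 151 at 15 to 25%. Within a class of level the sparser and the denser windows had shares close to each other. With fewer than 20 positions the share was 2.87% at 2 to 5%, 7.57% at 5 to 10% and 14.5% at 10 to 25%, and with 20 or more it was 2.69%, 7.19% and 12.0%. Below 2% the shares were 0.368% and 0.0740%, from 7 and 5 members.

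**Figure D3:**
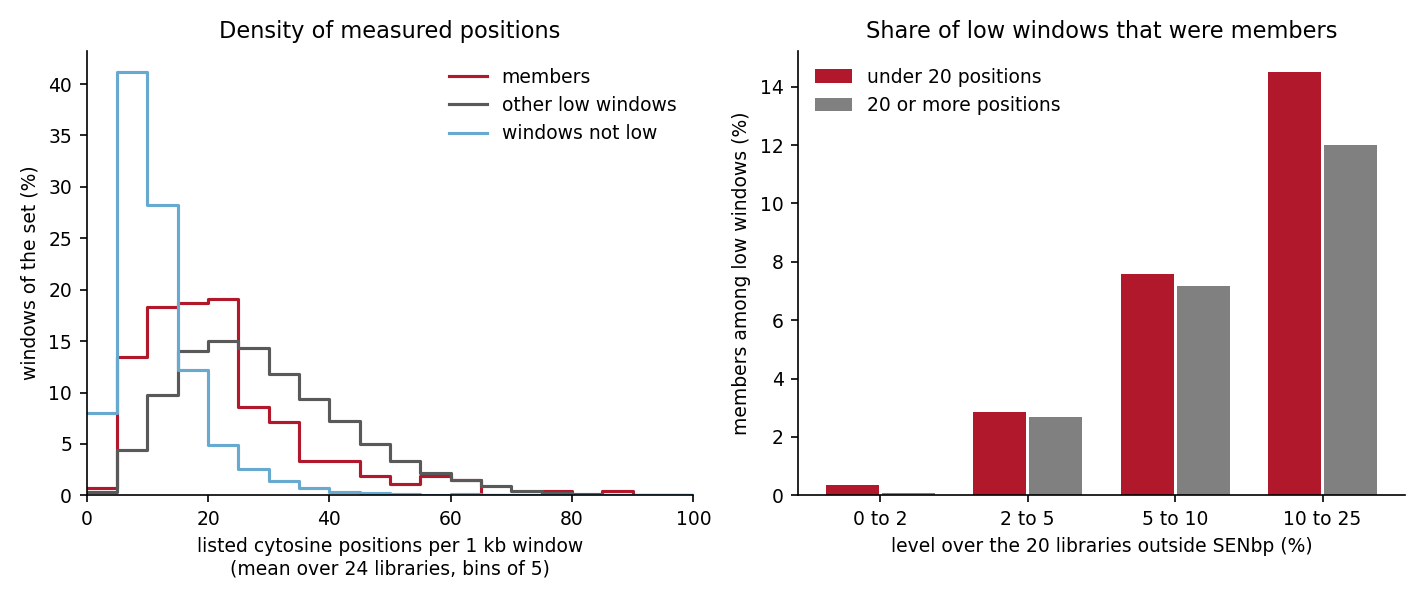
Left, share of windows (%) by listed cytosine positions per 1 kb window (mean over 24 libraries, bins of 5) for members, other low windows and windows not low. Members and other low windows both peak in the bin from 20 positions, and members have the larger share in each sparser bin. Windows not low peak in the bin from 5. Right, share of low windows that were members (%) by their level over the 20 libraries outside SENbp (%), for windows with under 20 and with 20 or more positions; the share climbs with level to 14.5% and 12.0% and differs little between the densities from 2% upwards.

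Dense members were found all the same. KB708174.1:10442001-10443000, with a mean of 89.1 positions per library the densest member, had 51.6%, 31.2%, 49.9% and 48.6% in SENbp libraries, against 12.3%, 4.65%, 7.69% and 6.12% in SEN libraries, and 2.44% ± 0.876 in DMSO pools (SD, n = 4). KB708304.1:115001-116000, with 75.6 positions, had 44.9%, 47.1%, 43.9% and 54.3% in SENbp, against 7.41%, 8.56%, 8.91% and 18.1% in SEN. KB708247.1:2940001-2941000, with 64.5 positions, had 28.7%, 34.0%, 36.7% and 11.3% in SENbp, against 2.32%, 4.49%, 4.57% and 3.91% in SEN. In the first of these 3 windows SENbp and SEN were far apart, and in the last SENbp replicate 4 lay nearer to SEN than to the other SENbp libraries. The densest members also included KB708128.1:5259001-5260000 with 63.2 positions and 39.8% ± 12.0 in SENbp and 19.6% ± 9.53 in SEN (SD, n = 4 each).

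Most members had no other member close by, though measured neighbours of members were members more often than neighbours of other low windows were. Of measured windows 1 kb upstream 5 of 68 were members, against 44 of 3241 beside other low windows, and 1 kb downstream 5 of 66 were, against 48 of 3236. The 5 upstream and the 5 downstream are the same 5 adjoining pairs, counted from either end. Some of these pairs lie in 1 run on KB708274.1, so the difference rests on few places. Another member lay within 1 kb of 9 members (3.37%), within 5 kb of 16, within 10 kb of 23 and within 100 kb of 32 (12.0%). Joined at less than 5 kb apart, the 267 windows formed 259 clusters, of which 6 held more than 1 member and 14 members in all. Members lay on 132 of the 649 scaffolds that held low windows, and 74 scaffolds had a single one. On the 90 scaffolds with at least 50 low windows the share of members ran from 0% to 7.55% with a median of 1.73%, and 19 of these scaffolds had none. Sparse sampling by the method limits what clustering can be seen, since only 68 upstream and 66 downstream neighbours of members were measured.

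The largest cluster was a run of 4 members in 5 kb, KB708274.1:803001-808000. KB708274.1:803001-804000 had 39.97%, 52.8%, 49.2% and 52.4% in SENbp libraries, against 5.87%, 1.66%, 7.33% and 0.262% in SEN libraries. KB708274.1:804001-805000 had 27.4%, 42.1%, 37.4% and 20.7% in SENbp, against 2.90%, 0%, 4.53% and 1.22% in SEN. KB708274.1:805001-806000 had 64.6%, 72.0%, 76.7% and 71.8% in SENbp, against 22.0%, 12.0%, 22.4% and 28.01% in SEN. No SENbp library overlapped a SEN library in these 3 windows, and the last of them was the most methylated of the 3 in both groups. KB708274.1:807001-808000 had 80.0%, 80.4%, 66.0% and 85.4% in SENbp, against 7.40%, 3.73%, 12.9% and 6.76% in SEN, while MTc replicate 2 reached 47.5%. Over the 4 windows the means were 57.4% in SENbp, 8.69% in SEN, 11.1% in MTc, 7.46% in Nc, 5.02% in B[a]P and 4.004% in DMSO.

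The windows beside the run differed between its 2 sides. Those upstream were methylated in SENbp and SEN alike, and the one just downstream was high in SENbp and low in the pools. The following non-member windows were chosen for naming after their values were seen. Just upstream, KB708274.1:802001-803000 was at 81.4% ± 6.004 in SENbp and 82.8% ± 9.08 in SEN. The pools were uneven in that window, with 42.8% ± 39.96 in B[a]P and 48.3% ± 39.7 in DMSO. At 2 kb upstream, KB708274.1:801001-802000 was at 96.1% ± 1.68 in SENbp, 95.5% ± 5.71 in SEN and 82.5% ± 5.14 in DMSO. Just downstream, KB708274.1:808001-809000 was at 72.4% ± 5.44 in SENbp, 37.4% ± 8.52 in SEN, 33.3% ± 16.3 in MTc, 19.3% ± 3.69 in Nc, 7.76% ± 4.97 in B[a]P and 8.67% ± 4.42 in DMSO (SD, n = 4 each). This downstream window had no place among the members since SEN and MTc were above 25% there. At 10 kb upstream of the run, KB708274.1:793001-794000 was at 0% in all SENbp libraries and at 0.844% ± 0.758 in SEN, so a low window nearby was not higher in SENbp.

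A second place, KB708133.1, held members on both sides of nearly unmethylated windows. KB708133.1:20568001-20569000 and KB708133.1:20770001-20771000 were named for their large rise, and the other windows here were picked by no set rule. How many members lie beside such windows was not counted. KB708133.1:20568001-20569000 had 86.0%, 74.0%, 60.8% and 80.0% in SENbp, against 9.14%, 18.7%, 11.8% and 23.3% in SEN. At 5 kb downstream, KB708133.1:20573001-20574000 had 68.1%, 80.2%, 73.5% and 65.4% in SENbp, against 21.4%, 13.7%, 22.6% and 14.6% in SEN. Of the 3 measured windows between them, KB708133.1:20570001-20571000 was at 25.4% ± 6.46 in SENbp and 7.19% ± 2.72 in SEN. The other 2, which were the densest, were almost free of methylation, with KB708133.1:20571001-20572000 at 1.06% ± 1.17 in SENbp and 0.656% ± 0.843 in SEN over 54.4 positions. KB708133.1:20572001-20573000 was at 0.715% ± 0.974 in SENbp and 1.55% ± 1.90 in SEN over 49.8 positions (SD, n = 4 each). The members on either side of this dense core were thus methylated in SENbp while the core was not. Beyond the second member, KB708133.1:20577001-20578000 was at 4.78% ± 5.52 in SENbp and 2.64% ± 1.78 in SEN. At 196 and 202 kb from the first member, KB708133.1:20764001-20765000 had 73.0% ± 11.4 in SENbp and 19.5% ± 14.4 in SEN, and KB708133.1:20770001-20771000 had 82.8% ± 2.25 in SENbp and 18.6% ± 1.12 in SEN. Between them were KB708133.1:20767001-20768000 at 41.1% ± 15.4 in SENbp and 22.3% ± 12.9 in SEN, and KB708133.1:20768001-20769000 at 0.982% ± 1.28 in SENbp and 1.81% ± 1.88 in SEN (SD, n = 4 each).

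**Figure D4:**
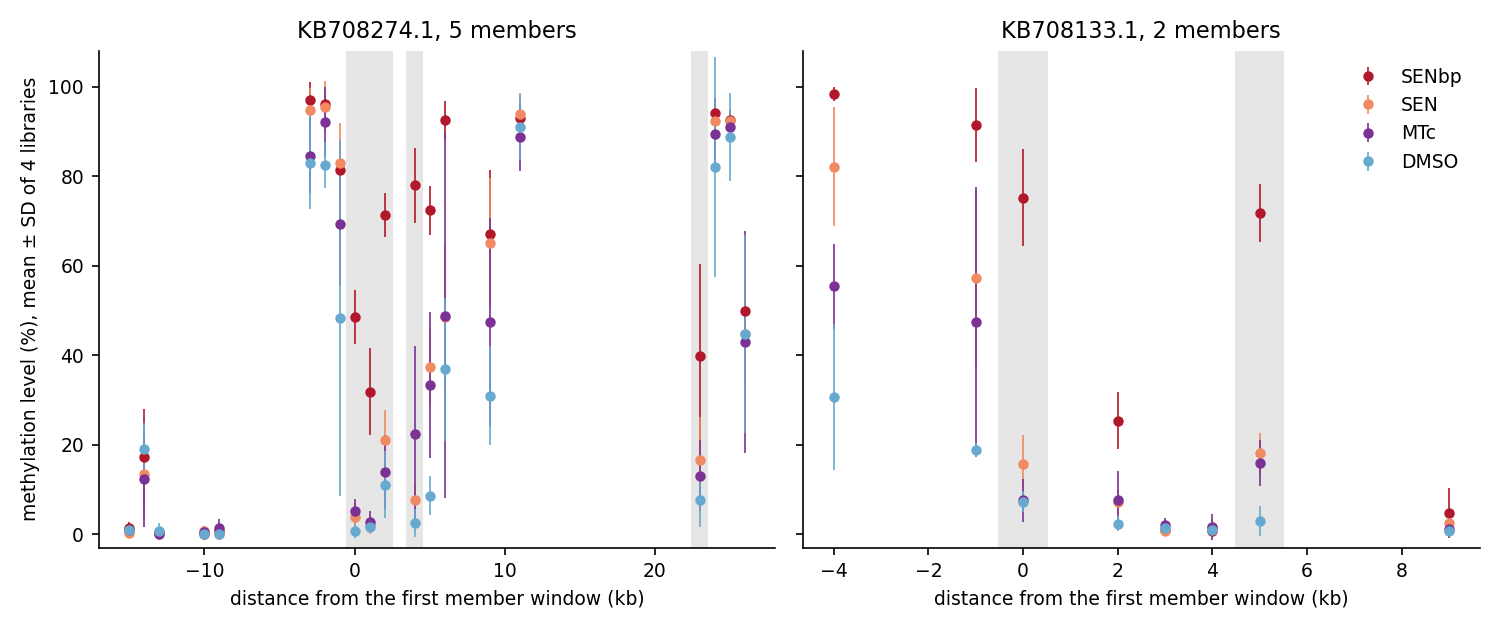
Methylation level (%, mean ± SD of 4 libraries) of all measured windows by distance from the first member window (kb), for SENbp, SEN, MTc and DMSO, with member windows shaded. Left, the run of 4 members on KB708274.1 and 1 more member 23 kb from its start, where SENbp stands above the other groups and windows 10 kb upstream stay near 0%; right, 2 members on KB708133.1 at 75.2% and 71.8% in SENbp, with 2 windows near 1% and 1 at 25.4% between them.

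The other clusters held 2 members each. KB708128.1:31818001-31820000 averaged 67.04% in SENbp, 13.8% in SEN and 6.12% in DMSO, and KB708182.1:10456001-10460000 averaged 57.0% in SENbp, 20.9% in SEN and 6.44% in DMSO. In KB708182.1:10459001-10460000, the second window of this cluster, the 3 positions listed in all 8 libraries had 9.83% to 30.5% in SENbp and 9.54% to 20.9% in SEN. The difference of that window therefore rested on positions that were not listed in every library.

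The windows next to members, not members themselves, were read in the same contrast. There were 91 low ones, with a mean of 10.1% ± 0.598 in SENbp, 5.20% ± 0.858 in SEN and 2.59% ± 0.508 in DMSO, and 73 of them were higher in SENbp (80.2%). Among 5284 low neighbours of other low windows the means were 4.88% ± 0.149 in SENbp and 3.08% ± 0.0644 in SEN (SD, n = 4 each), with 60.8% higher in SENbp. The 32 neighbours that were not low had 64.5% ± 1.98 in SENbp, 54.1% ± 3.599 in SEN, 39.9% ± 4.25 in MTc and 30.3% ± 3.45 in DMSO (SD, n = 4 each). Neighbours of members were less often low themselves, in 76.2% of cases on one side and 72.1% on the other, against 89.8% and 90.03% for other low windows. Of 74 neighbours that could be tested in SENbp against SEN 8 were called higher (10.8%) and 0 lower, beside the 6.41% and 0.493% over all tested windows. That background includes the members, which the rule chose by this contrast. Of 44 low neighbours 4 were called higher (9.09%), against 6.24% of the other low windows not beside a member. Of 30 neighbours that were not low 4 were (13.3%), against 4.62% of the remaining windows that were not low. Being no member caps what a low neighbour can show. The call with the smallest adjusted p was KB708133.1:20567001-20568000, at 91.4% ± 8.25 in SENbp and 57.2% ± 19.5 in SEN (SD, n = 4 each, adjusted p = 0.00220). KB708247.1:2941001-2942000, next to the dense member at 2940001, had 27.1% in SENbp and 7.19% in SEN (adjusted p = 0.00283).

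Positions within a window differed in level. The libraries listed 14127 positions in members, of which 314, in 78 members, were in all 8 SENbp and SEN libraries. Of these, 250 (79.6%) were at least 10 points higher in SENbp and 8 (2.55%) at least 10 points lower. An excess of higher positions follows from the choice of the windows, and the share in other windows was not taken. In SENbp 36 of the 314 had a mean below 10%, 53 had 10 to 25%, 75 had 25 to 50%, 85 had 50 to 75% and 65 had 75% or more. In SEN the same classes held 195, 63, 44, 10 and 2 positions. The SENbp positions were spread over the whole scale, while most SEN positions were below 10%. In the 25 members with at least 5 such positions the median SD between positions of a window was 21.4 points in SENbp and 10.6 points in SEN. Every position was at least 10 points higher in 7 of these 25 windows.

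**Figure D5:**
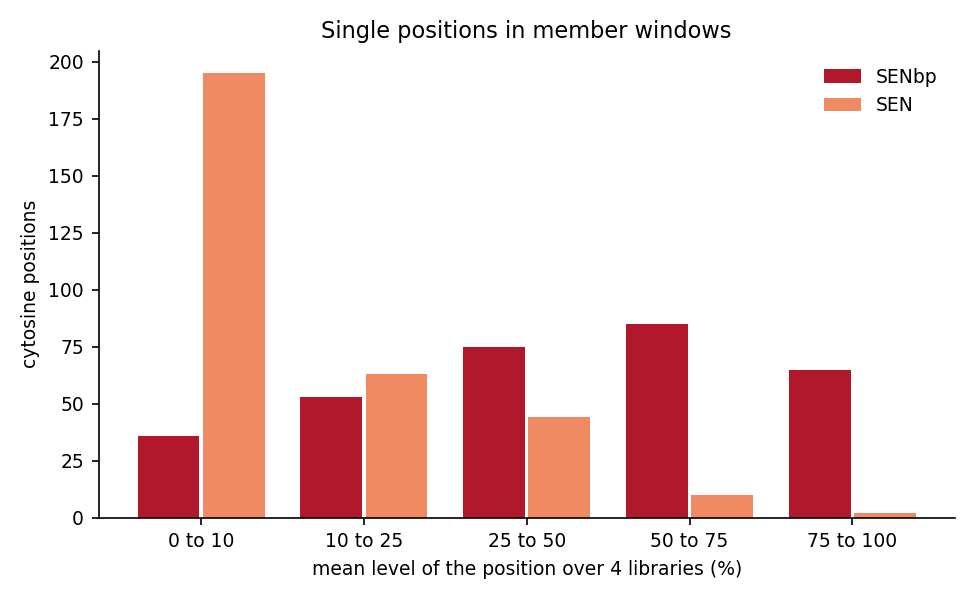
Number of cytosine positions (y axis) by mean level over 4 libraries (%, x axis classes), for the 314 positions of member windows listed in all 8 SENbp and SEN libraries. SENbp has 85 positions at 50 to 75% and 65 at 75% or more, and SEN has 195 of 314 below 10%.

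In KB708128.1:31819001-31820000 all 9 shared positions lay on 1 strand, between 214 and 276 bases from the start of the window, at 35.0% to 87.0% in SENbp with a median of 62.2%, against 0% to 26.7% in SEN with a median of 0%. At 8 of the 9 positions the SD over the 4 SENbp libraries was 43.9 to 48.0 points, so the libraries disagreed over most of the scale, and 3 positions had the same mean and SD (62.2% ± 44.0, n = 4). KB708133.1:20568001-20569000 had 4 shared positions at 60.1% to 89.8% in SENbp, all at 0% in SEN. In KB708184.1:7381001-7382000 the 5 shared positions ran from 5.06% to 99.7% in SENbp and from 0% to 50.8% in SEN, so that neighbouring cytosines differed as much as the groups did. Where both cytosines of a CpG pair were listed in all 4 libraries of a group, the strands differed little on average. The forward and reverse means were 37.3% and 38.8% over 41 pairs in SENbp, and 14.8% and 15.8% over 62 pairs in SEN, with a median absolute difference of 16.4 points in SENbp and 9.08 points in SEN. Only 54 positions, in 21 members, were listed in all 24 libraries. Their means were 50.2% ± 3.21 in SENbp, 14.4% ± 3.41 in SEN, 11.7% ± 2.10 in MTc, 9.501% ± 2.27 in Nc, 8.91% ± 2.25 in B[a]P and 6.43% ± 1.26 in DMSO (SD, n = 4 each), which is the order of the window means on a fixed set of cytosines.

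Read coverage in members was slightly lower in SENbp than in SEN. The median log2 ratio of the window's share of library coverage, SENbp over SEN, was -0.12 in members and 0.05 in other low windows. On 10 of 251 scaffolds compared, SENbp had lower coverage, with a log2 ratio below -0.5, and 18 members (6.74%) lay on these, against 3.52% of other low windows. These 18 had 41.2% in SENbp and 12.8% in SEN, and the other 249 had 44.5% and 12.4%, so the levels off those scaffolds were as high. The mean number of listed positions in SENbp was 0.901 times that in SEN for members and 0.978 times for other low windows. The part of coverage and of listed positions in the levels was not tested.

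The same rule turned to each of the other groups kept few windows. With SEN in the place of SENbp it kept 8 windows, with MTc 11, with Nc 1, with B[a]P 0 and with DMSO 2, with a largest rise of 30.7 points, in MTc, against 70.02 points in SENbp. In each turn SENbp was among the groups that had to be low, so a window high in both SEN and SENbp could not be kept for SEN. The SENbp libraries are a later day of the SEN culture, so the low count for SEN is partly set by the rule. How many windows this left out was not tested. The SENbp and SEN means are over technical replicates of 1 culture, while those of the other groups are over separate samples. Single libraries of those groups did reach the SENbp levels in some members. KB708135.1:5522001-5523000 was at 71.4% in MTc replicate 4 and at 1.59% to 8.43% in the other 3, beside 50.6%, 23.8%, 34.1% and 59.4% in SENbp. KB708161.1:13261001-13262000 was at 69.6% in Nc replicate 3 and at 4.34% to 6.64% in the other 3, beside 53.0%, 58.9%, 33.5% and 48.3% in SENbp. KB708133.1:234001-235000 was at 57.5% in MTc replicate 3 and at no more than 6.41% in the other 3, beside 31.5%, 59.7%, 52.0% and 53.4% in SENbp. In these 3 windows, chosen as the members with the widest range outside SENbp, high methylation was not limited to the SENbp libraries. In both KB708135.1:5522001-5523000 and KB708133.1:234001-235000 a single MTc library was high. In the order named, the 3 windows had 5 to 26, 3 to 9 and 3 to 8 positions per library. Reads per library were 146 to 691 in MTc, 69 to 1545 in Nc and 93 to 234 in MTc. The position ranges are over all libraries, so they hold for the SENbp values too. The number of positions in each high library is not given here.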

How the data were processed

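Libraries were grouped by the sample labels. Per the submitters' processing notes, tools included Bismark 0.22.1 with Bowtie2, methylKit 1.10.0 in R 3.6.1, Trim Galore 0.5.0 and bcl2fastq 2.20.0.42; the genome build and the settings are not given in the sources used here. Each deposited table lists CpG cytosines by strand with a read count (coverage) and the percent read as C and as T, per the file headers, and no deposited position has under 10 reads. The methylated count was coverage multiplied by the percent C and rounded; at coverage up to 1000 all lay within 0.06 reads of a whole number. Whether PCR copies were removed is not known, so reads are not independent molecules.

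Coverage was summed over 1 kb windows with Python 3.11.15. The window test was a quasi-binomial logistic model in R 4.3.3, with Pearson dispersions squeezed by limma 3.58.1 within 10 classes of pooled methylation, a floor of 1, an F test and Benjamini-Hochberg adjustment over all tested windows. On simulated windows its p-values were somewhat too small, so adjusted p near 0.05 are weak. P-values for SENbp against SEN measure technical spread only, and those for SEN against MTc set technical spread of 1 culture beside spread between samples. Replicates of a group differed by more than binomial noise in every pair (mean chi-square per window 18.7 to 53.6), so no library was a copy of another; the SENbp and SEN libraries are still repeats of 1 culture and not independent samples.

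The members, lists, tests and alternatives were chosen with earlier results of these data known. Named windows are the 10 members with the largest rise and no overlap, the 5 densest, the 3 largest clusters, the 3 on each side of the limit, up to 5 called in each other comparison, and the 3 with the widest range outside SENbp; members are summarised where not named. The gene lists and positions by gene were not run, since no annotation of the files' assembly was used here, and for the same reason no sequence is shown. Added after seeing the data was the alternative without the lower-coverage scaffolds. Outside the naming rules, further windows were named around members on KB708274.1 and KB708133.1.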

Additional observations from a re-analysis of the deposited data

Results flagged for a closer look

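In 30 of the 210 groups of 4 libraries at the named windows, 1 library stood apart from the other 3 by more than Dixon's 95% limit, where chance flags about 1 in 20 groups, here 10.5. Many of these groups hold values near 0, where few reads set the gap. KB708128.1:3060001-3061000 had B[a]P replicate 1 at 1.14% with the others at 0%. KB708128.1:5259001-5260000 had MTc replicate 4 at 21.7% with the others at 5.70 to 7.37%. KB708128.1:31818001-31819000 had B[a]P replicate 4 at 13.1% with the others at 1.11 to 2.41%. KB708133.1:234001-235000 had MTc replicate 3 at 57.5% with the others at 0 to 6.41%. KB708133.1:20770001-20771000 had Nc replicate 1 at 33.9% with the others at 4.02 to 7.88%. KB708135.1:5522001-5523000 had MTc replicate 4 at 71.4% with the others at 1.59 to 8.43% and DMSO replicate 3 at 26.4% with the others at 6.43 to 8.99%. KB708147.1:8903001-8904000 had B[a]P replicate 2 at 7.24% with the others at 0% and DMSO replicate 4 at 4.77% with the others at 0 to 0.457%. KB708150.1:15988001-15989000 had B[a]P replicate 3 at 0.192% with the others at 0% and DMSO replicate 2 at 14.7% with the others at 0%. KB708155.1:16149001-16150000 had MTc replicate 2 at 3.62% with the others at 0 to 0.147%, Nc replicate 2 at 0.963% with the others at 0 to 0.162% and B[a]P replicate 2 at 13.3% with the others at 0 to 0.275%. KB708161.1:13261001-13262000 had Nc replicate 3 at 69.6% with the others at 4.34 to 6.64%. KB708173.1:3440001-3441000 had B[a]P replicate 3 at 7.74% with the others at 0 to 1.16%.

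KB708174.1:10442001-10443000 had SENbp replicate 2 at 31.2% with the others at 48.6 to 51.6%. KB708182.1:10456001-10457000 had B[a]P replicate 2 at 12.1% with the others at 2.61 to 3.79% and DMSO replicate 4 at 14.1% with the others at 0%. KB708206.1:9671001-9672000 had Nc replicate 4 at 2.66% with the others at 0.281 to 0.593% and DMSO replicate 3 at 0.982% with the others at 0 to 0.0691%. KB708261.1:3916001-3917000 had SEN replicate 4 at 1.12% with the others at 10.1 to 11.3% and MTc replicate 1 at 20.03% with the others at 2.26 to 4.87%. KB708274.1:803001-804000 had Nc replicate 2 at 7.73% with the others at 0 to 0.976%, B[a]P replicate 1 at 9.37% with the others at 0 to 1.16% and DMSO replicate 2 at 3.13% with the others at 0 to 0.115%. KB708274.1:805001-806000 had Nc replicate 1 at 4.23% with the others at 10.3 to 11.4%. KB708304.1:115001-116000 had SEN replicate 4 at 18.1% with the others at 7.41 to 8.91%. KB708332.1:545001-546000 had SEN replicate 1 at 28.1% with the others at 14.5 to 16.1%. KB708344.1:633001-634000 had Nc replicate 2 at 5.43% with the others at 10.7 to 11.5%.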

How the results depend on the processing

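The rule kept 267 windows, and 21 over positions covered in all 24 files, where only 2266 windows were measured, 609 of them low, and where 9 of the 21 were among the 267. It kept 83 with a low limit of 10%, 474 with a rise of 15 points and 100 with a rise of 30 points. It kept 179 to 273 under the other alternatives of position minimum, level, coverage limit, window size and low limit, 249 without the lower-coverage scaffolds and 259 to 311 without 1 library. The SENbp mean over members was 43.9% to 44.7% without 1 library. The mean density of 22.4 positions was 3.81 over positions in all 24 files. Another member lay within 5 kb of 16 members and within 100 kb of 32. Without dispersion squeezing the calls were 239 of 826 in SENbp against SEN, 3 of 8 for neighbours of members, 48 of 308 in SEN against MTc and 3 of 6 for members there. Without the filter on pooled methylation SEN against MTc gave 145 windows and 3 members. With the replicate block, calls were 426 in SENbp against SEN, 135 windows and 2 members in SEN against MTc, 2 in MTc against Nc (0 without) and 0 in B[a]P against DMSO. Same-numbered libraries correlated between -0.0276 and 0.0259, so they share only a number. Without 1 library the calls ranged from 475 to 697 in SENbp against SEN (544, 538 and 475 without SENbp replicate 2, SEN replicate 3 and SEN replicate 4), from 6 to 8 for neighbours, from 114 to 331 in SEN against MTc (114, 123, 135 and 114 without SEN replicates 1 to 4), and from 2 to 6 for members there (3, 3 and 2 without SEN replicates 1, 2 and 4), and were 0 to 0 in the other 2 comparisons. The rise at KB708182.1:10459001-10460000 was -0.0587 points over positions in all 24 files. Of the other results for named windows 880 kept direction and side of the threshold, 32 lost a call and 7 moved by more than the spread. The cause of these changes was not tested. Positions by gene and the gene lists were not run.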
